A study of Mus musculus with 24 samples.

Results

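Liver was represented by 3 of the 24 libraries of a tissue survey in mice that carry SENCR-BAC, a bacterial artificial chromosome with the human long non-coding RNA SENCR. The liver libraries were taken from the sample labels, and for each gene the liver mean was set against the average of the 7 other tissue means. Those tissues were kidney, stomach, lung, spleen, heart, aorta and brain, with 3 libraries each. Every library came from a transgenic animal: the labels name no animals without the transgene and no strain, sex or age. The libraries are named as "SR-KI" by tissue. Which libraries come from one animal is not stated, so p-values measure the spread between these libraries.

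The liver takes up nutrients from portal blood, makes most plasma proteins and disposes of the nitrogen of amino acids as urea. Most of its mass is hepatocytes, which divide this work along the lobule between a periportal and a pericentral zone. Sinusoidal endothelial cells, Kupffer cells (the resident macrophages), stellate cells and cholangiocytes (the lining of the bile ducts) make up the rest. A small set of transcription factors, among them the HNF, C/EBP, FOXA and ONECUT families, is known for maintaining the hepatocyte programme.

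Values were FPKM, a read count divided by the length of the gene and by the library's assigned reads, for 7493 genes with human symbols, because the mouse reads had been aligned to a human build. A mouse gene is therefore seen only as far as its sequence resembles the human gene, and levels were compared between tissues within a gene. Liver was the shallowest tissue, with 205974 ± 10878 assigned reads (SD, n = 3; 193900 to 215012) against 269941 to 642307 in the 21 other libraries (exact two-sided permutation test, p = 0.00198, 0.0119 to 0.0158 without 1 liver library). It also showed fewer genes above 0, 2776 ± 132 against a mean of 3629 (exact permutation p = 0.000988). Both tests exchange single libraries, although the 3 libraries of a tissue are not independent of their tissue. With liver as 1 of 8 tissues, these p-values do not measure the spread between tissues. One read was worth a median of 0.889 to 0.974 FPKM in the liver libraries. Pairs of liver libraries had a correlation of 0.949 to 0.952 over genes, in log2(FPKM + 1). They differed from each other by more than sampling noise (chi-square over its degrees of freedom, 3.48 to 3.76).

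Comparisons were made with limma on log2(FPKM + 1), a scale that understates the difference of low genes, for the 4260 genes that reached 1 FPKM in 3 or more libraries. A gene could pass that filter through the liver libraries alone. A call needed an adjusted p below 0.05 together with a difference of 1 or more, and "higher than each" or "lower than each" means called in that direction against each of the 7 tissues. By these rules 418 genes (9.81%) were higher in liver than the mean of the other tissues and 737 (17.3%) were lower, 1155 (27.1%) in all. Liver was higher than each tissue for 82 genes (1.92%) and lower than each for 64 (1.50%). The median difference over the 4260 genes was -0.33, and 1143 of them had no liver read. Of the 737 lower genes, 552 had fewer than 10 reads in the 3 liver libraries together, against 22 of the 418 higher genes. With the reads of every library thinned to 193900, the counts were 405 higher and 658 lower.

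**Figure D1:**
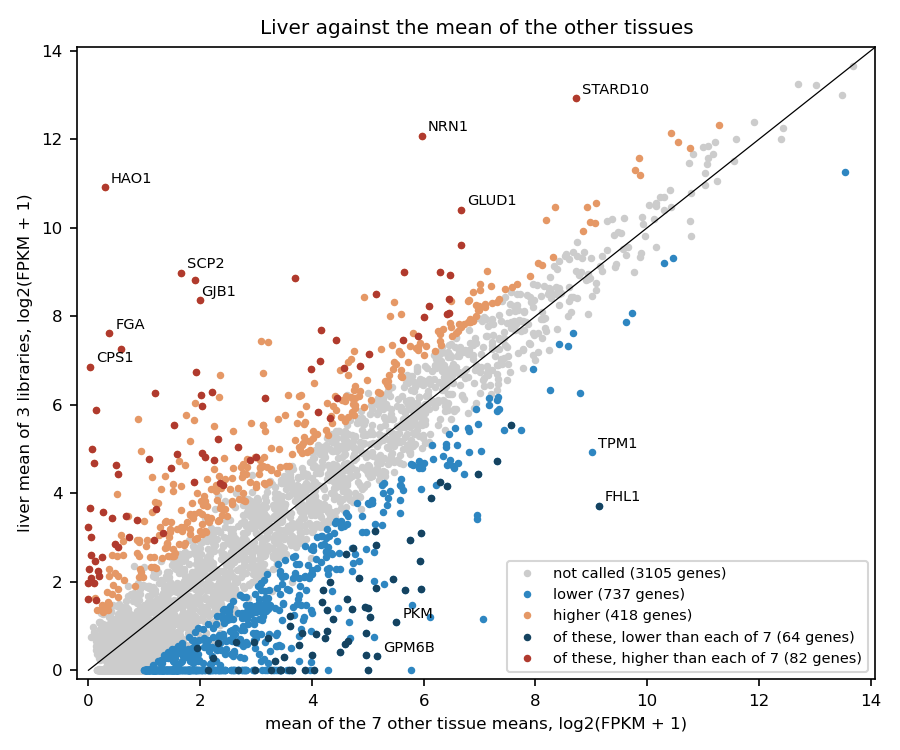
Each point is a gene: its mean over the 3 liver libraries (vertical axis) against the mean of the 7 other tissue means (horizontal axis), both as log2(FPKM + 1). Genes far above the diagonal, such as HAO1, FGA and CPS1, were near 0 outside liver, whereas many of the 737 lower genes lie along the bottom edge, at 0 in liver.

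HAO1, CPS1, FGA and GLS2 served as liver markers, chosen with earlier results of these libraries known, and each was higher in liver than in each other tissue. HAO1, a peroxisomal oxidase of glycolate, was at 1985, 1766 and 2063 FPKM in the liver libraries on 2099 reads. Elsewhere it was above 0 in stomach replicate 3 (16.9 FPKM) and aorta replicate 1 (2.74 FPKM) and listed at 0 in the other 19 libraries. CPS1, which makes carbamoyl phosphate at the entry to the urea cycle, was at 87.3, 136 and 129 FPKM in liver, with a single read in the 21 other libraries. FGA, the fibrinogen alpha chain of blood clots, was at 205, 170 and 217 FPKM, and reached 3.08 FPKM at most in another library (kidney replicate 1). GLS2, the liver-type glutaminase, was at 56.0, 83.4 and 42.2 FPKM, with at most 1.92 FPKM elsewhere (spleen replicate 3). No liver library of these 4 genes overlapped any other library.

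The promoters of genes that shared this pattern were looked at next. Of the 82 genes higher than each tissue, 61 matched a mouse symbol in RefSeq's promoter table (GRCm38.p6), with 79 promoters of 300 bases, 250 before and 50 after the start. The 250 bases before the start are shown for HAO1 (chr2:134554353-134554602, minus strand), FGA (chr3:83025903-83026152, plus strand) and BHMT (chr13:93637759-93638008, minus strand), which differ in the motifs they hold. BHMT, betaine-homocysteine methyltransferase, remakes methionine from homocysteine. Capitals mark matches to a motif on either strand.
HAO1: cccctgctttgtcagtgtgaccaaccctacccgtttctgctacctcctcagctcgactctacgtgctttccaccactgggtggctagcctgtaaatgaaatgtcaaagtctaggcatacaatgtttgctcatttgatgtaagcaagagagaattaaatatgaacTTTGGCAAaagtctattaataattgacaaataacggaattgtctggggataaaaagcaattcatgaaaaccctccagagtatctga
FGA: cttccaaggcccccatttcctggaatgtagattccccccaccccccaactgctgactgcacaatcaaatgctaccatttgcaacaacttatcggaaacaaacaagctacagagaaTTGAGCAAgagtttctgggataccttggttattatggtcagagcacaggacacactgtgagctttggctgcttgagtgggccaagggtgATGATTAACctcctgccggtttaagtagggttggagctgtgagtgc
BHMT: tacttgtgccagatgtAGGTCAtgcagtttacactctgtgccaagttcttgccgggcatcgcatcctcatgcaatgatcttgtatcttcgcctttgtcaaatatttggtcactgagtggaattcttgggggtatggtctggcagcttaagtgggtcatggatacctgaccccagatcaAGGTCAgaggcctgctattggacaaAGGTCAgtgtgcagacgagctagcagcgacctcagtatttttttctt

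In FGA the capitals nearest the start match an HNF1 motif, searched as GTTAATNAT on both strands, 46 to 38 bases before the start on the minus strand. The other capitals in FGA, 135 to 128 bases before the start, and those in HAO1, 86 to 79 bases before, match a C/EBP motif searched as TTGCNNAA, also on the minus strand. BHMT holds 3 copies of the nuclear receptor element AGGTCA, the nearest 47 to 42 bases before its start. Over the 79 promoters, HNF1 matches were in 2 (2.53%; FGA and ADRA1B), against 0.801% of all 32851 promoters and 0.370% of those of genes kept in the fit. For C/EBP the shares were 7.60%, 10.8% and 7.63%, for AGGTCA 13.9%, 16.3% and 11.1%, and for a FOXA motif (TGTTTAC) 5.06%, 3.65% and 2.47%. An HNF4 motif (CAAAGTCCA) was in 0 of the 79, against 0.475% and 0.208%. TATAAA was in 11.4% of the 79 promoters, against 13.6% and 7.26%, and GGGCGG in 60.8%, against 35.7% and 65.4%. No motif overlapped another in the stretches shown, and a match describes letters in this window and no more.

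Genes of the urea cycle and of amino acid breakdown had the highest median difference of the gene groups. Of 73 such genes listed, 32 were in the table and 20 were kept. Of the 20, 16 were higher in liver (80.0%, against 9.81% of all genes tested). CPS1, 1 of the 16, passed the filter through the liver libraries alone. The median difference of the 20 was 3.27 against -0.33 over all genes tested. Liver exceeded each other tissue for 9 of them. Beside HAO1 (difference 10.63, SE 0.54), CPS1 (6.83, SE 0.15), GLS2 (5.75, SE 0.25) and BHMT (4.93, SE 0.28), these included SLC38A3 and AHCY. SLC38A3, a glutamine transporter of the plasma membrane, was at 139, 191 and 130 FPKM in liver and at most 4.80 FPKM in any other library (6.66, limma adjusted p = 3.27e-10). AHCY, which splits S-adenosylhomocysteine, was at 289, 311 and 392 FPKM in liver and 29.1, 43.2 and 46.8 FPKM in kidney, the next tissue (6.37, limma adjusted p = 5.52e-12). GLUD1, glutamate dehydrogenase, was at 1370 ± 203 FPKM (SD, n = 3) against 345 FPKM in kidney, although the counting could have split its reads with the near-identical human copy GLUD2. BHMT was uneven between libraries, at 17.4, 22.6 and 73.1 FPKM. The 4 members not called were OGDH (96.7 FPKM, difference 0.11), BCKDK (-0.70), SLC25A13 (0.24) and GOT1, which had no liver read.

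**Figure D2:**
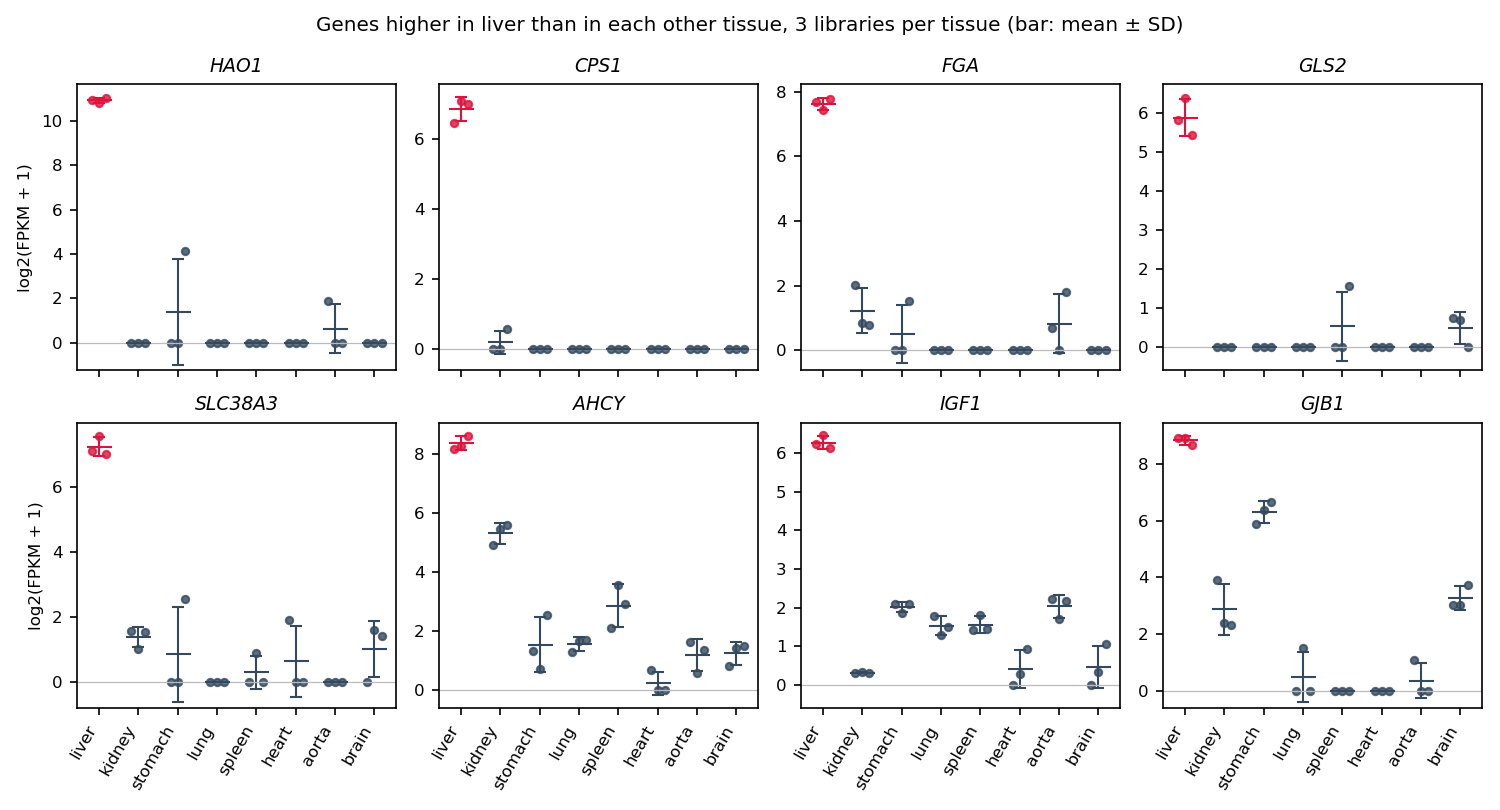
Levels of 8 genes as log2(FPKM + 1) in each of the 24 libraries, with the mean and SD of the 3 libraries per tissue and liver in red. Liver lies above each other library in all 8 panels, and the second tissue is kidney for AHCY, stomach for GJB1 and aorta for IGF1.

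Several of these enzymes and carriers are known to occupy one end of the lobule. Of 10 kept genes from a list of periportal and pericentral genes, 7 were higher in liver (70.0%, against 9.81% of all genes). The periportal genes CPS1, ASS1 and GLS2 were among them, and so was GLUL, the pericentral glutamine synthetase, at 3.19 FPKM on 16 reads (difference 1.42). ASS1, the urea cycle enzyme argininosuccinate synthase, was at 26.7, 77.8 and 59.9 FPKM in liver and 38.7 FPKM in kidney, and it was not called against kidney. The pericentral cytochrome CYP2E1 (2.91 FPKM) and RGN (2.04 FPKM) each rested on 1 read per liver library and 0 elsewhere. With 3 reads the exact 95% Poisson interval of CYP2E1 is 0.598 to 8.48 FPKM and that of RGN 0.419 to 5.94 FPKM, covering counting error only, so their small SD between libraries is not a measure of precision. Without any 1 of the liver libraries, 4 members were called higher, because a gene seen only in 2 liver libraries then fails the filter.

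Plasma protein genes were thinly represented. Of 86 listed, 35 were in the table and 7 were kept. FGA, PLG, SERPINC1 and C1R were called higher, 57.1% of the 7 kept against 9.81% of all genes. PLG, the precursor of plasmin, was at 6.74, 14.2 and 6.05 FPKM in liver and at 0 in the 21 other libraries. SERPINC1, antithrombin, was at 9.85, 11.97 and 2.66 FPKM on 10 reads. C1R, a complement protease, was at 0, 23.2 and 7.91 FPKM, and without liver replicate 2 its call ended (difference 1.07, limma adjusted p = 0.110). PLG and SERPINC1 passed the filter through the liver libraries alone, so part of the 57.1% was set by the filter. Both fail it whenever a liver library is left out. The list's count was then 2 without liver replicate 1 or 3 and 1 without liver replicate 2. ALB, serum albumin, had a single liver read against 11 in aorta replicate 1 and 26 in aorta replicate 3, and HP and TTR had none in liver. The 31 listed genes that were not called had 12 reads in the 3 liver libraries and 79 in aorta replicates 1 and 3. Those 2 aorta libraries also held 579 reads of mitochondrially encoded genes, against 4 in the liver libraries, and the part this plays in the plasma protein values was not tested. Nor was it tested whether the reads of these aorta libraries came from mouse or human RNA, which a human reference alone does not tell apart.

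Among lipid genes, 8 of 16 kept (50%) were higher in liver and 1 (6.25%) was lower, against 9.81% and 17.3% of all 4260 genes. SCP2, a carrier of sterols and fatty acids, was at 362, 668 and 536 FPKM in liver and 24.6 FPKM at most elsewhere, in kidney replicate 2 (difference 7.33, limma adjusted p = 3.27e-10). DGAT2, which completes triglyceride synthesis, was at 469, 558 and 501 FPKM against a mean of 173 FPKM in heart, the next tissue. ABCA1, the cholesterol exporter that builds high density lipoprotein, was at 27.4 ± 3.83 FPKM (SD, n = 3) against 7.91 FPKM in aorta. The enzymes of fatty acid synthesis ELOVL6 (2.03), ACACA (1.72) and ACLY (1.26) and the desaturase FADS1 (1.47, on 7 liver reads) were also higher than the mean of the other tissues. CHKA, a choline kinase, had no liver read and 170 elsewhere, and was called lower.

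Of 9 kept genes of fatty acid oxidation and the peroxisome, 3 (33.3%) were higher, against 9.81% of all 4260 genes. They were the peroxisomal transporter ABCD3 (24.5 ± 15.7 FPKM, SD, n = 3), the peroxisome import factor PEX13 (116 ± 6.52 FPKM) and the mitochondrial thiolase ACAT1 (49.5 ± 20.1 FPKM). PEX13 was higher than each tissue. ACAT1 was at 90.1 FPKM in kidney. The list held 5 called members without liver replicate 1, and voom on recovered reads called 6.

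Genes of glucose and glycogen metabolism gave 7 higher members of 14 kept (50%, against 9.81% of all 4260 genes), with a median difference of 1.07. PYGL, the liver glycogen phosphorylase, was at 22.2, 15.0 and 3.69 FPKM in liver and at most 2.05 FPKM elsewhere, in spleen replicate 1. The muscle and brain forms PYGM and PYGB had no liver read, and neither was called lower (differences -0.48 and -0.32). PC, which feeds gluconeogenesis with oxaloacetate, was at 24.6 ± 7.94 FPKM (SD, n = 3) in liver and 20.04 FPKM in kidney. UGP2 (2.06), GK (1.45) and CRTC2 (1.06) were higher than the mean, although GK was at 98.4 FPKM in kidney against 16.5 FPKM in liver.

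No member of the amino acid, plasma protein, secretory or zonation lists was called lower by limma, at an unadjusted p under 0.05 or by voom. Among all 4260 genes limma called 9.81% higher and 17.3% lower. In the glucose, fatty acid oxidation, xenobiotic and bile acid lists limma called 0 lower, with 1 each at an unadjusted p under 0.05 and 0 by voom, and without liver replicate 2 limma called 1 lower glucose gene. The last pair of lists was small. ABCB4, the canalicular phospholipid exporter, was the called one of 2 kept bile acid genes, at 1.20, 8.71 and 3.86 FPKM. Of 4 kept xenobiotic genes, CYP2R1, a vitamin D 25-hydroxylase, was called at 2.79, 6.21 and 5.16 FPKM together with CYP2E1. CYP2E1 passed the filter through the liver libraries alone. Without any 1 of them it fails the filter, and the xenobiotic count was then 1.

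**Figure D3:**
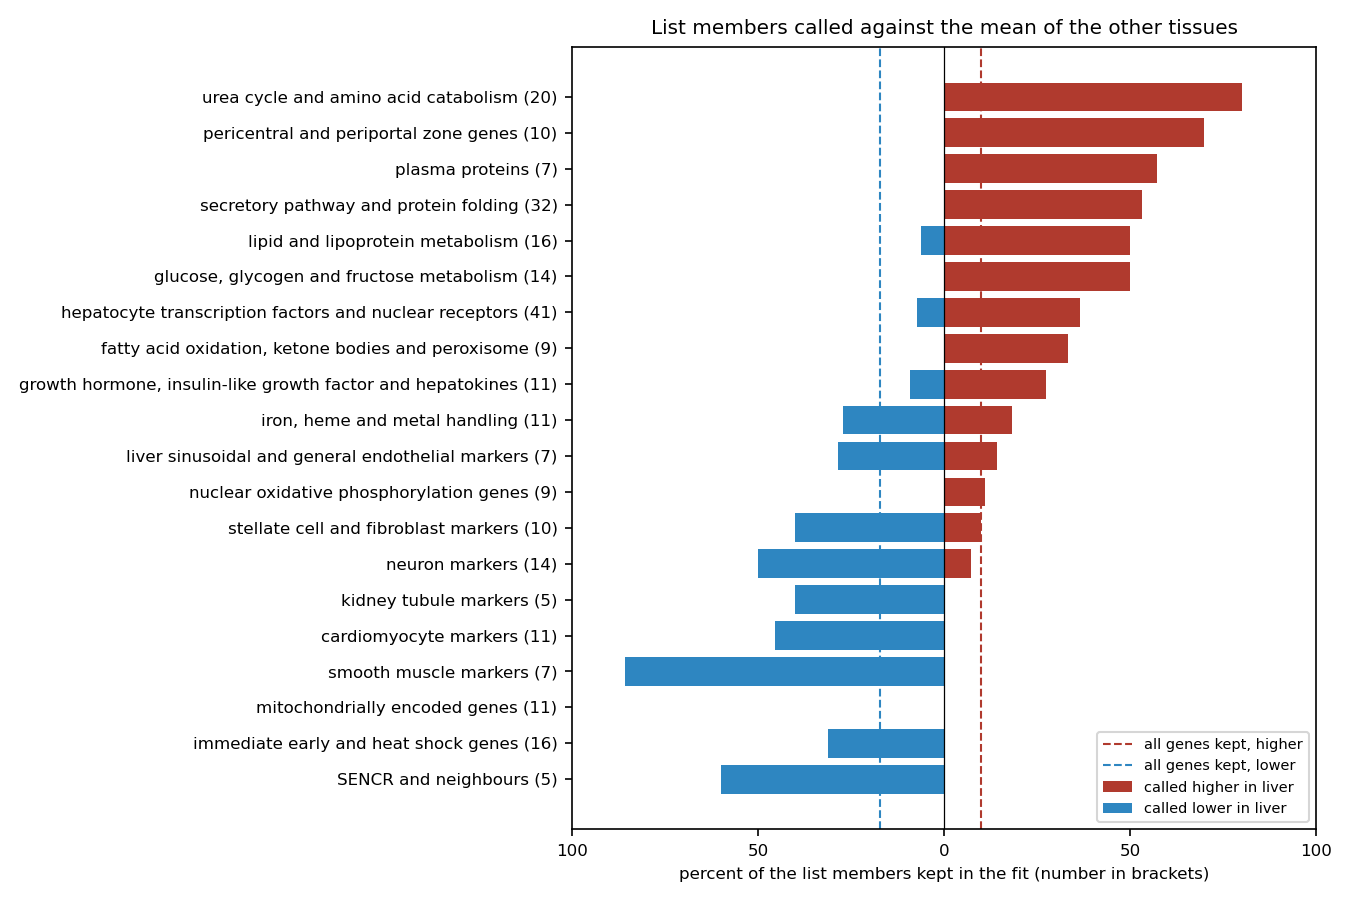
Percent of the kept members of each list that were called higher (red, to the right) or lower (blue, to the left) in liver than the mean of the other tissues, with the number kept in brackets and dashed lines for all 4260 genes. The amino acid list reaches 80.0% higher, whereas smooth muscle, cardiomyocyte and neuron markers extend to the left.

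Transcription factors and nuclear receptors known from hepatocytes gave 15 higher (36.6%) and 3 lower (7.32%) members of 41 kept, with a median difference of 0.66. The shares of all 4260 genes were 9.81% and 17.3%. CEBPA, a leucine zipper factor of hepatocytes and fat cells, was at 427, 536 and 437 FPKM in liver, with aorta next at 111, 65.4 and 63.3 FPKM (difference 5.17, limma adjusted p = 5.36e-10). ONECUT1, or HNF6, was at 10.99, 38.5 and 35.6 FPKM in liver and was above 0 in 2 other libraries. PROX1 (82.0 ± 31.4 FPKM, SD, n = 3) and CEBPB (177 ± 14.1 FPKM) were also higher than each tissue, as were ONECUT2 (4.14 FPKM) and ATF5 (3.44 FPKM on 6 reads). The pioneer factors FOXA2 and FOXA1 were shared with the other endoderm-derived tissues. FOXA2 was at 54.4 FPKM in liver, 58.1 in stomach and 35.4 in lung, and FOXA1 at 37.96, 160 and 32.1 FPKM. GATA6 had no liver read, NR2F1 was at 2.02 FPKM, and PPARGC1A was at 0.412, 5.60 and 0.888 FPKM. The lower call of PPARGC1A ended without liver replicate 1 (-0.65, limma adjusted p = 0.181) or 3 (-0.86, 0.105).

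Of 11 kept genes of the growth hormone and IGF axis and of hepatokines, 3 (27.3%) were higher and 1 (9.09%) was lower. The shares of all 4260 genes were 9.81% and 17.3%. IGF1, the growth factor that liver releases under growth hormone, was at 73.9, 87.2 and 69.3 FPKM in liver. In the other tissues IGF1 means ran from 0.242 FPKM in kidney to 3.14 FPKM in aorta, and the difference from their mean was 5.09 (limma adjusted p = 8.80e-13). SOCS3, an inhibitor of cytokine receptor signals, was at 91.4, 44.4 and 98.5 FPKM, next to 47.1 FPKM in lung. STAT5B, which transmits the growth hormone signal, was called at 1.20 (limma adjusted p = 0.0244), and the call ended without any 1 of the liver libraries (adjusted p = 0.0549 to 0.101). GPC3, a fetal glypican, had 1 liver read against 741 elsewhere.

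Of 11 kept iron genes, 2 (18.2%) were higher and 3 (27.3%) lower, against 9.81% and 17.3% of all 4260 genes. IREB2, an iron-sensing RNA-binding protein, was at 10.4 FPKM (1.58). SLC40A1, the iron exporter ferroportin, was called higher by 1.30, but by 0.40 without liver replicate 2. TFRC, the transferrin receptor, was at 9.60 FPKM and lower by -1.32 (-0.83 without liver replicate 1). SMAD7 and SMAD6, inhibitors of the BMP signal to hepcidin, were lower by -1.09 each, and by -0.98 (SMAD7) without liver replicate 2 and -0.48 (SMAD6) without liver replicate 3. The list held 1 higher member without liver replicate 1 or 2, and voom called 2 higher and 1 lower.

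Secretory pathway genes were higher in liver by smaller amounts. Of 32 kept, 17 were called higher (53.1%, against 9.81% of all genes), with a median difference of 1.02. LMAN1, a cargo receptor that carries clotting factors out of the endoplasmic reticulum, was at 68.4, 70.4 and 70.6 FPKM in liver against 18.6 FPKM in stomach, the next tissue. SAR1B, the GTPase of COPII vesicles needed for lipoproteins, was at 23.1, 28.0 and 27.2 FPKM against 6.45 FPKM in kidney. HSP90B1 (257 FPKM), SRPRA (336 FPKM) and SEC63 (26.0 FPKM) were also higher than each tissue, and represent folding and import into the endoplasmic reticulum. SYVN1, XBP1, SSR3, STT3A and HSPA5 were called against the mean, with differences of 1.77, 1.77, 1.61, 1.44 and 1.39, but not against each tissue. XBP1 was at 19.8, 45.7 and 34.6 FPKM in liver, with a mean of 33.4 FPKM against 32.5 FPKM in stomach.

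The remaining genes with a wide gap to the next tissue covered transport, contact and signalling. GJB1, connexin 32 of hepatocyte gap junctions, was at 481, 483 and 400 FPKM in liver and 58.4, 81.9 and 99.1 FPKM in stomach. SLC6A12, the betaine carrier, was at 11.8 FPKM with 1 read elsewhere. PDIA5 (66.7 FPKM), TTC39C (24.7 FPKM) and H2AJ were also among the 20 widest gaps. H2AJ rested on 4 reads and belongs to a family of near-identical histone genes, so it is uncertain. Of the 82 genes, 48 had at least 100 liver reads and 6 fewer than 10, and in 77 the liver libraries all lay above the 21 others.

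The most abundant of the 82 were chosen for mention after their values were seen. STARD10, a lipid transfer protein, was at 7710, 7894 and 7906 FPKM in liver and next highest in stomach (2414, 2323 and 3254 FPKM). NRN1, neuritin, known from neurons, was at 4161, 4879 and 4006 FPKM in liver, and brain followed at 1038, 1085 and 1091 FPKM. Its 7308 liver reads were more than the 6844 of the 21 other libraries together.

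Of the 418 genes higher than the mean, 173 were also called higher against kidney alone (5.47%), the fewest, 234 against stomach (6.76%) and 308 against lung (9.18%). The counts were 342 against heart (15.4%), 350 against aorta (13.2%) and 329 against brain (14.1%). Against spleen it was 300, where 468 of all 4260 genes were called. Of the 737 lower genes, 561 were called lower against lung (22.0%), 528 against brain (28.8%), 481 against aorta (17.9%) and 387 against stomach (13.2%). Spleen, heart and kidney gave 334 (16.8%), 329 (10.9%) and 327 (12.7%). Each share in brackets is that of all 4260 genes. Those contrasts are part of the mean that chose the genes, so the counts describe the set and test nothing. A further 42 genes were called against each tissue except kidney. The genes named next were chosen after their values were seen. PANK1, which starts coenzyme A synthesis, was at 174 FPKM in liver and 158 in kidney, and ALDH6A1 of valine breakdown at 319 and 456 FPKM. The splicing and editing cofactor A1CF, at 15.6 FPKM in liver and 10.6 in kidney, was listed at 0 in each other tissue. For 9 genes brain was the exception. RAPGEF4, a cyclic AMP sensor, was at 103 FPKM in liver and 125 in brain, and the potassium channel KCNN2 at 172 and 108 FPKM. SYT1, the synaptic calcium sensor on the neuron list, was at 9.01, 2.63 and 7.77 FPKM in liver, 236 in brain and at most 1.86 in a library of another tissue. Heart was the exception for 2 genes, the cadherin CDH2 (16.4 FPKM against 22.6) and RMDN1 (23.0 against 18.1). Over the 4260 genes the log2 means of liver correlated at 0.893 with kidney and 0.691 with brain, values across genes that share each library's depth.

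**Figure D4:**
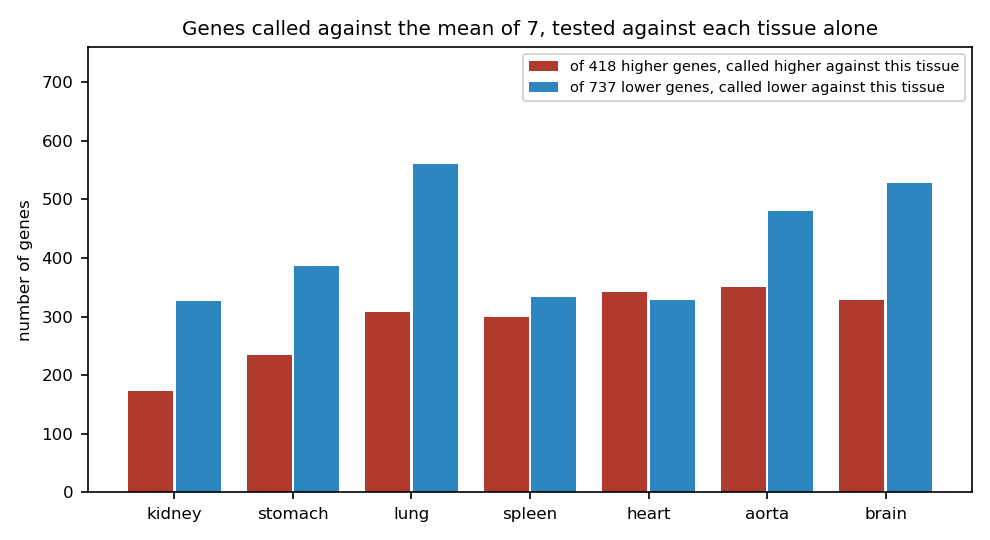
Bars give how many of the 418 genes higher than the mean of 7 tissues were called higher against each tissue alone (red) and how many of the 737 lower genes were called lower against it (blue). Red is lowest for kidney (173) and highest for aorta (350), and blue is highest for lung (561).

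Among the genes lower in liver than in each other tissue was PKM, the pyruvate kinase of muscle and of most other tissues. It was at 2.85, 0 and 1.54 FPKM in liver and from 9.31 to 115 FPKM elsewhere (difference -4.41, limma adjusted p = 9.75e-10), so that no liver library overlapped another tissue. MEF2C, a transcription factor of muscle, neurons and lymphocytes, was at 4.16, 6.57 and 3.36 FPKM in liver on 27 reads, against tissue means from 14.9 FPKM in kidney to 255 FPKM in brain (-3.46, limma adjusted p = 9.79e-12). FBLN5, an elastic fibre protein, had 1 liver read against 1646 elsewhere, with 231 FPKM in aorta.

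RGCC, a regulator of the cell cycle, had no liver read and 434 elsewhere. Taking 3 reads over the liver libraries as the limit that a count of 0 allows, it was at least 2.29-fold lower than in brain, the lowest of the other tissues. FHL1, a LIM domain protein of muscle, was at 20.8, 10.7 and 7.93 FPKM in liver and at 32.5 to 4119 FPKM elsewhere. SSBP2 (1.44 FPKM), GPM6B (0.311), IER5L (2.47), TAF9B (1.20), INTS6L (1.81), C11orf96 (3.95), ABCC5 (0.548) and NOVA1 (0.354) completed the 10 widest gaps with RGCC and PKM, each on 9 liver reads or fewer. SPARC, a matrix protein of connective tissue, was better covered at 27.7, 14.8 and 40.3 FPKM on 58 reads, against 57.4 FPKM in kidney. FHL1, MEF2C, FBLN5 and SPARC were chosen after their values were seen. Of the 64 genes lower than each tissue, 12 had no liver read and 43 fewer than 10, and in 50 the liver libraries all lay below the 21 others. For MAGED2, 1 of those 12, the limit of 3 reads (2.13 FPKM) exceeds its kidney mean (1.76 FPKM). By that limit MAGED2 need not be lower in liver than in kidney.

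**Figure D5:**
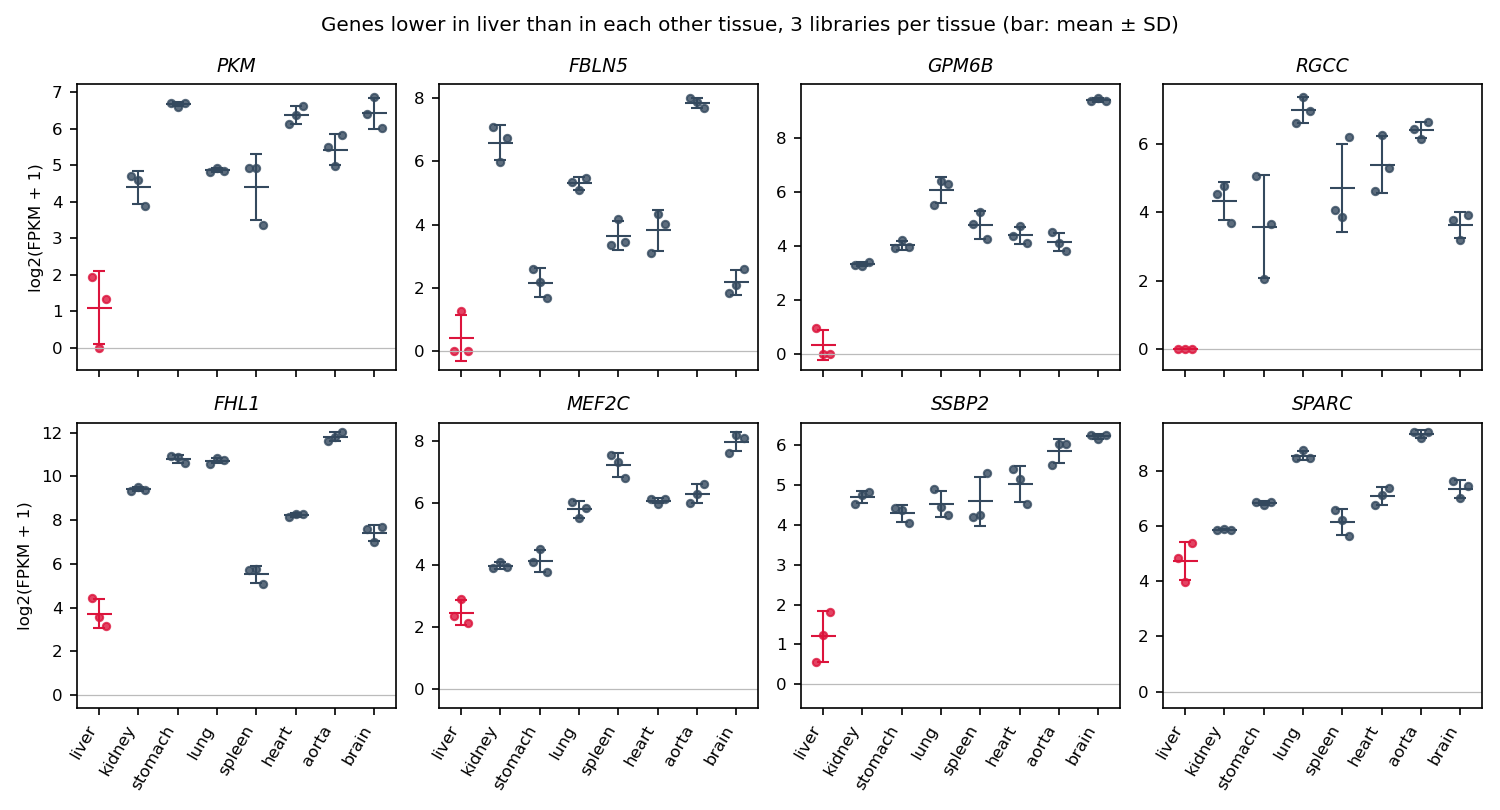
Levels of 8 genes lower in liver (red) than in each other tissue, as log2(FPKM + 1) in each of the 24 libraries with the mean and SD of 3 per tissue. RGCC is at 0 in the 3 liver libraries, and FHL1 and SPARC keep a liver level well above 0.

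Markers of muscle cells and neurons were mostly low or at 0 in liver, a bulk tissue in which fewer cells of a type and less RNA per cell cannot be told apart. Of 7 kept smooth muscle markers, 6 were lower, among them TPM1 (31.1 FPKM) and SMTN (1.74 FPKM), and the summed list ran from 33.4 to 60.8 FPKM in the liver libraries. Cardiomyocyte markers gave 5 of 11 lower and 9 at 0 in liver. Neuron markers gave 7 of 14 lower, 1 higher (SYT1) and 12 at 0. For comparison, 9.81% of all 4260 kept genes were called higher and 17.3% lower, and 1143 of them had no liver read. Voom called 3 smooth muscle, 3 cardiomyocyte and 5 neuron markers lower, and 1 neuron marker higher. The limma counts of higher smooth muscle and cardiomyocyte markers were 0, also at an unadjusted p under 0.05 and by voom. All 5 kidney tubule and 4 stomach epithelium markers in the table were at 0. Of 10 kept stellate cell and fibroblast markers, DES, VIM (2.20 FPKM), COL1A1 (1.10 FPKM) and FBLN5 (0.462 FPKM) were lower, and voom called 3 lower. RELN, known from stellate cells, was higher than each tissue at 6.13, 5.96 and 3.08 FPKM, and without liver replicate 3 limma called 2 of this list higher. Endothelial markers gave WNT2 higher and FLI1 and TEK lower of 7 kept, with 1 lower by voom and without liver replicate 2. WNT2, a signal of central vein endothelium, was at 1.24, 3.62 and 6.69 FPKM on 9 reads, and no endothelial marker was called higher without liver replicate 2 or 3. The 3 Kupffer cell markers in the table were at 0 in liver, as were 4 of 6 blood markers and the single pancreas marker. Of 1 kept blood marker and 1 kept macrophage marker limma called 0, with 1 lower blood marker at an unadjusted p under 0.05 and 0 of both by voom. Of 4 kept cholangiocyte markers limma called 0 in either direction, also at an unadjusted p under 0.05. Without liver replicate 1 limma called 1 higher, and voom called 2 higher.

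SENCR itself was at 7.37, 17.9 and 15.9 FPKM in liver on 11 reads and was not called (difference -0.94, limma adjusted p = 0.0910). SENCR and its neighbours made up 5 kept genes, of which limma called 3 lower (60%) and 0 higher. The shares of all 4260 genes were 17.3% and 9.81%. The 3 were FLI1 (79.1 FPKM), ETS1 (3.69 FPKM) and KCNJ1 (no liver read). Whether reads of these genes came from the transgene or from mouse genes was not tested. The FLI1 call ended without liver replicate 2 (-0.62, adjusted p = 0.273), the ETS1 call without liver replicate 1 (-0.95, 0.0920) or 3 (-0.83, 0.131), and voom called none of the 3.

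Organelle, growth and stress genes were counted as a description of the libraries. The 11 kept mitochondrially encoded genes gave 0 calls by limma, 0 higher and 1 lower at an unadjusted p under 0.05 and 0 by voom, on 4 liver reads. With so few liver reads the absence of calls does not measure RNA quality in liver. Aorta replicates 1 and 3 held 579 reads of mitochondrially encoded genes. Of 9 kept nuclear genes of oxidative phosphorylation, limma called 1 higher (11.1%, near the 9.81% of all 4260 genes) and 0 lower. At an unadjusted p under 0.05, 3 were higher and 0 lower, and voom called 2 higher and 0 lower. The member called by limma was ATP5MC3, a ring subunit of ATP synthase, higher by 1.05. A further member was called without liver replicate 1. Neither of 2 kept proliferation genes was called by limma, at an unadjusted p under 0.05 or by voom, and 6 of the 7 in the table were at 0 in liver. Of 16 immediate early and heat shock genes, 5 were lower by limma (31.25%, against 17.3% of all 4260 genes), and voom called 3 lower. In the other direction 0 were higher by limma, at an unadjusted p under 0.05 or by voom. KLF4, EGR3, FOS and KLF6 had no liver read, and JUN was at 2.01 FPKM, with its call lost without liver replicate 1 (-1.06, limma adjusted p = 0.146). KLF4 reached 227 FPKM in stomach and 89.4 in lung. The count was 3 without liver replicate 1, and the FOS call ended without any 1 of the liver libraries (adjusted p = 0.0949 to 0.0973).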

How the data were processed

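Total RNA of 8 tissues (24 libraries) was extracted with TRIzol and made into libraries with a VAHTS Universal V10 kit, per the labels' protocols. fastp, HISAT2, HTSeq and the build GRCh38.p13 are named without versions, per the submitters' processing notes; the annotation, strand setting and handling of multiply aligned reads are not stated there. The authors deposited FPKM per gene and library. Of the 7493 symbols, 91.4% were also mouse symbols, ignoring case.

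Low FPKM values were whole multiples of 1 read, which gave back the read numbers used for depth and for voom. Copies made by PCR were not told apart, so intervals and limits cover counting error only. limma 3.58.1 (R 4.3.3) with a mean-variance trend was fitted to 8 tissue means on log2(FPKM + 1), with a pseudocount of 1 and Benjamini-Hochberg adjustment over 4260 genes per contrast. The scripts were tested on simulated data. Depth was compared by exact permutation over 2024 splits of single libraries, not of tissues.

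The 28 gene lists, the markers and the tests were chosen with earlier results of these data known. Genes named are the 4 markers, the 20 widest gaps above and 10 below the next tissue, and up to 6 called members per list and direction plus the most abundant; others are said to be chosen after their values were seen or are list members given by count. Replicate numbers were not used to pair libraries. Alternatives were pseudocounts of 0.1 and 5, filters, scalings, variance settings, a replicate block, fits of 6 libraries, no minimum difference, voom and each library left out; thinning and leaving out aorta replicates 1 and 3 were chosen after seeing the data. Python 3.11.15 with numpy 2.4.6, pandas 2.3.3 and matplotlib 3.10.9 was used. A few genes that this rule names are not reported here.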

Additional observations from a re-analysis of the deposited data

How the results depend on the processing

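The counts of called genes stayed within 1.5 times of those reported except as follows. With a pseudocount of 5, 272 genes were higher and 313 lower than the mean of the other tissues, so that higher calls made up 46.5% of all calls rather than 36.2%, and 25 were lower than each tissue. With a pseudocount of 0.1, 106 were lower than each, and fits of 6 libraries per pair of tissues gave 38. With no minimum difference, 704 were higher, 1365 lower and 126 higher than each. Leaving out 1 library gave 384 to 438 higher, 703 to 749 lower, 67 to 83 higher than each and 59 to 84 lower than each. Voom on recovered reads called 521 higher and 616 lower and moved the median of all genes by 0.37; quantile normalization moved it by 0.13, a pseudocount of 5 by 0.20, a pseudocount of 0.1 by -0.31 and no filter by 0.25. With the replicate block, 421 were higher and 743 lower, 84 higher than each and 67 lower than each; same-numbered libraries deviated together at a median r of 0.02 (-0.06 to 0.13), so the numbers are not taken as pairs. Without aorta replicates 1 and 3, 417 were higher and 734 lower. No direction reversed among the 81 named genes in the 3131 values that 39 alternatives gave. Of these genes, 26 lost the call under at least 1 alternative, 18 of them with a pseudocount of 5, 8 with voom and 12 without 1 liver library; the cause was not tested. A further 28 values could not be computed, because 13 genes failed the filter of an alternative or were left out by it, 6 of them (CPS1, CYP2E1, PLG, RGN, SERPINC1 and SLC6A12) whenever a liver library was left out. Of the 1143 kept genes without a liver read, 301 were called lower.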

Other observations

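Gene families not on any list were looked at after their values had been seen, so their counts describe these libraries and carry no test. Proteasome subunits are the parts of the machine that degrades tagged proteins. Of 26 kept genes with PSMA to PSME symbols, 13 were called higher and 0 lower, with a median difference of 1.06. Over all 4260 genes 9.81% were called higher and 17.3% lower, with a median difference of -0.33. PSMB7, a catalytic subunit, was at 2547 ± 264 FPKM in liver against 1306 FPKM in kidney, the next tissue (SD, n = 3). PSMD11, a lid subunit, was at 270.2 FPKM in liver and 131 in kidney.

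HOX genes set position along the body axis. Of 25 kept HOX genes, 20 were called lower and 0 higher, with a median difference of -1.80, and 16 of the 25 had no liver read. Among all 4260 genes 17.3% were called lower and 9.81% higher, the median difference was -0.33, and 1143 had no liver read. HOXA5 was at 719 FPKM in lung, 392 in aorta and 172 in kidney, and at 3.82 ± 6.62 FPKM in liver (SD, n = 3).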
